A study of Mus musculus with 10 samples.

Results

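Glucose uptake and the first steps of glycolysis were followed through 6 mouse genes: the glucose transporters Slc2a1 and Slc2a3, the hexokinases Hk1 and Hk2, and the phosphofructokinases Pfkl and Pfkp. The members were all probe sets whose platform gene symbol is one of these 6, which gave 6 of 8251 named genes and 9 of 12488 probe sets. Total RNA of mouse hepatocytes, the main parenchymal cells of the liver, was hybridised to 10 oligonucleotide arrays. The groups were 3 hypoxic arrays labelled HIF-1alpha null, 3 hypoxic adeno-treated arrays, called hypoxic wild type here after the series title, 2 normoxic adeno-treated arrays and 2 normoxic untreated control arrays. All 10 samples share the label hepatocytes, and no normoxic null sample was analysed here. The sources used here do not give the adeno vector, whether null cells received it, the means of HIF-1alpha removal, the normoxic cells' genotype, the strain or age of the mice, the oxygen level or its duration. Nor do they say which arrays came from separate cultures. The p-values therefore measure the spread between these arrays, which may be technical, and the small number of arrays limits the precision.

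Glucose enters a cell through facilitative transporters of the Slc2a family, is trapped by phosphorylation by a hexokinase, and is committed to glycolysis when a phosphofructokinase phosphorylates fructose phosphate. Hepatocytes in the liver rely mainly on the transporter Slc2a2, and have phosphofructokinase mostly of the liver type, Pfkl. Slc2a1 and Hk2 are known in many cell types as targets of hypoxia-inducible factor (HIF), a dimer of an oxygen-sensitive alpha subunit and Arnt. HIF binds DNA at a short core, ACGTG or GCGTG, within hypoxia response elements that can lie near a promoter or far from it.

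The 250 bases upstream of the annotated start are shown for the 4 genes whose intensities differed most between the hypoxic groups or between hypoxia and normoxia, because the comparisons below concern oxygen and HIF-1alpha. The sequences are those of RefSeq on GRCm38.p6, 5′ to 3′ on the gene's strand, and capitals mark each match to ACGTG or GCGTG on either strand, the opposite strand reading CACGT or CACGC.
Slc2a1, chr4:119108495-119108744, strand +: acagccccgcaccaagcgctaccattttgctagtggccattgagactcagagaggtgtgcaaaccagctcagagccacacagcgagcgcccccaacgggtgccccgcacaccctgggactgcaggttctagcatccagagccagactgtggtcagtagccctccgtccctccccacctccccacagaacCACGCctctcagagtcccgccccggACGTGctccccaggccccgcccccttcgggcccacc
Hk2, chr6:82774455-82774704, strand -: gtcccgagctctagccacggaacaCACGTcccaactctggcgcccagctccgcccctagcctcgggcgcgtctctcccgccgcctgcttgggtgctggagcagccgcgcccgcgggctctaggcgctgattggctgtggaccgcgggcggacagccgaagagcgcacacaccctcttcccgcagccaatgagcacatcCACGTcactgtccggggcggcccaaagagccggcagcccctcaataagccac
Pfkl, chr10:78009808-78010057, strand -: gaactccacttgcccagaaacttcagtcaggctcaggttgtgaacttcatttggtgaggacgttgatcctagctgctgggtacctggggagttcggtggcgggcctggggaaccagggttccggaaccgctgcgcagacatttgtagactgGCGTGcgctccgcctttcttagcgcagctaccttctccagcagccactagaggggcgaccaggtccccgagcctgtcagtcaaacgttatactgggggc
Pfkp, chr13:6648772-6649021, strand -: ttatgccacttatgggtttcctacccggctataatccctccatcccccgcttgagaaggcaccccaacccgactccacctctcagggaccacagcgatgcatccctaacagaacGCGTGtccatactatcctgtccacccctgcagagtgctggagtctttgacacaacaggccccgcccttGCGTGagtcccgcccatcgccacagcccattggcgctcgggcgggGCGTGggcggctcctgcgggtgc

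Of the 6 genes, 5 had an entry in the promoter table, and Slc2a3 was not among them. Slc2a1 had 2 matches, at -61 to -57 and at -36 to -32 relative to the start. Hk2 had 2, at -226 to -222 and at -52 to -48, both reading CACGT on the gene's strand. Pfkl had 1 match, at -99 to -95, and Pfkp had 3, the nearest at -23 to -19. Hk1 has 2 annotated starts: the first had no match, and the second had 2 stretches, of which the one at -15 to -8 reads CACGCGTG and holds the core on both strands. Overlapping matches were counted as 1 stretch. Of 32851 upstream windows of the same length, 38.6% held at least 1 match, 13.4% at least 2 and 4.6% at least 3. The narrower core ACGTG, on either strand, was present in 16.6% of all windows, and among the 6 member windows it was in those of Slc2a1 and Hk2. The member windows with a match had GC contents of 59.2% to 69.6%, and the first start of Hk1, without a match, 49.6%. The median over all windows was 52.4%, and the shares over all windows were not matched for GC content. A match describes the letters of the window and does not show that a factor binds there.

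**Figure D1:**
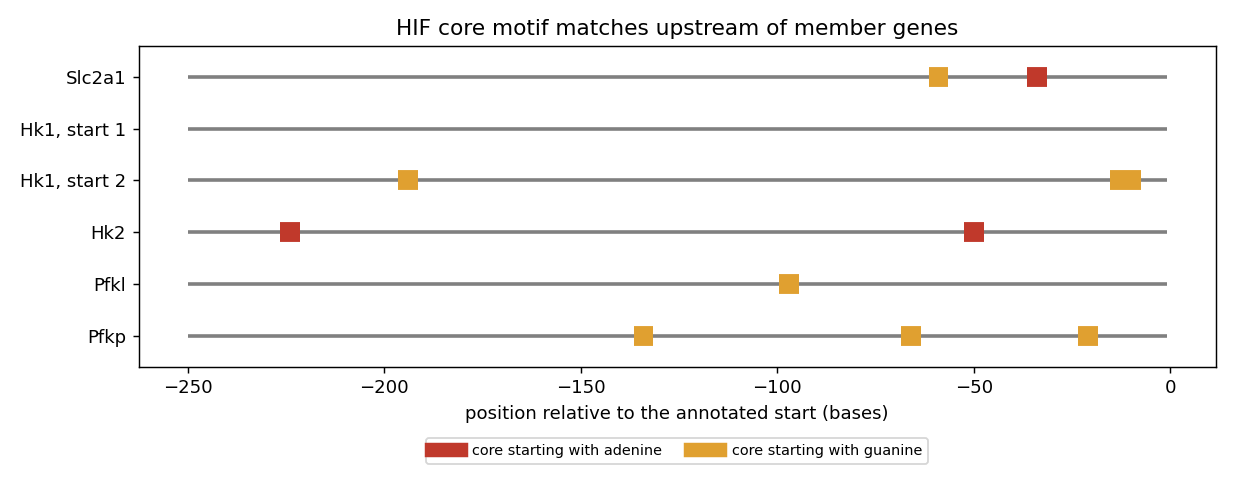
Matches to the HIF core in the 250 bases upstream of each member start, with position in bases relative to the start on the horizontal axis and 1 line per start. Red boxes are cores starting with adenine and yellow boxes cores starting with guanine; Slc2a1 and Hk2 hold red boxes, and the first start of Hk1 holds no match.

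The deposited values are scaled intensities, in arbitrary units. A probe set was tested if its mean over the 10 arrays reached 40.1, the 40th percentile, and 7453 probe sets did. Of the 9 member probe sets, 7 were tested, covering all 6 genes. Slc2a3 92292_at, with a mean of 38.7, and Hk2 161313_at, with a mean of 3.66, fell below that limit. Log2 changes are of intensity plus 4.7, which understates the change of dim probe sets, and folds are on that scale. Each adjusted p is from limma with Benjamini-Hochberg adjustment over all 7453 probe sets, with a threshold of 0.05. Arrays of the same number deviated together, clearly between the hypoxic groups and weakly between hypoxia and normoxia, and values with the array number as a block are given where they change a call.

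Some facts of the arrays touch every comparison. The targeted gene, Hif1a, was not lower on the arrays labelled null. On 98628_f_at it read 1647.1, 1010.5 and 850 on the null arrays, 961.8, 703.2 and 711.2 on the hypoxic wild-type arrays, 746.2 and 627.6 on the normoxic adeno arrays and 926.9 and 646.8 on the untreated arrays. On the other probe set, 98629_f_at, it read 910.3 to 1689.4 on the null arrays and 704.3 to 1095.5 on the hypoxic wild-type arrays. Null was above hypoxic wild type in 3 of 3 same-number pairs on both probe sets, at 0.52 and 0.56 on the log2 scale (adjusted p = 0.999 each, and 0.190 and 0.0967 with the array number as a block). Against normoxic adeno, null was at 0.71 and 0.88 (adjusted p = 0.450 and 0.372), and with the block at 0.85 and 1.03, called higher on both (adjusted p = 0.0155 and 0.00364). The sources used here do not place these probe sets relative to the deleted part, so they do not check the label, and null below means labelled null. The 2 hypoxic arrays numbered 3 stood apart from the other arrays in 18S ribosomal signal, with mean log2 values of 12.18 for null and 12.33 for wild type, against 5.98 to 10.25 elsewhere. The summed intensity of 9 stellate and fibroblast markers, all 9 with a probe set, was 4311 to 14429 on null, 4680 to 15374 on hypoxic wild-type, 8839 to 9594 on normoxic adeno and 7993 to 8486 on untreated arrays. In both hypoxic groups array 1 had the highest of these sums and array 3 the lowest. The 9 hepatocyte markers were all present, with sums of 27210 to 34206, 25242 to 37802, 33000 to 40438 and 28146 to 31414 in the same order of groups. The 5 biliary markers, 3 with a probe set, summed to 164 to 1779, 149 to 2553, 276 to 674 and 318 to 933, and the 9 macrophage markers, all with a probe set, to 683 to 993, 734 to 1428, 695 to 989 and 944 to 1279. Endothelial markers (6 of 6) summed to 463 to 1101, 490 to 1266, 612 to 757 and 882 to 1024, and lymphocyte markers (5 of 6) to 126 at most. Erythroid and platelet markers (3 of 5) summed to 118 to 195, 94 to 120, 101 to 139 and 55 to 73. The ranges of the fibroblast, macrophage, endothelial and biliary sums overlapped between null and hypoxic wild type. Within same-number pairs, however, null was lower in 3 of 3 for the fibroblast, macrophage and endothelial sums. For the erythroid and platelet sum null was higher in 3 of 3. Few genes carried some sums. Cd14, the brightest macrophage marker (mean 436), was at -0.74 in null against hypoxic wild type. Cd68, the next brightest (mean 162), was at 0.51. Eng, by far the brightest endothelial marker (mean 653), was at -0.07. Above the intensity limit were 2 of the 6 endothelial markers and 1 of the 3 erythroid and platelet probe sets. The part of the marker sums and of the number 3 arrays in the results was not tested. In such bulk samples fewer cells of a type and less RNA per cell cannot be told apart.

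Slc2a1 encodes GLUT1, the basal glucose transporter of many cell types, which is low in hepatocytes of the adult liver. Slc2a1 showed the clearest separation of the 6 genes between hypoxia and normoxia. Its intensity on 93738_at was 836.7, 1297.1 and 1194.4 on the null arrays, 1772.4, 1823.0 and 1666.4 on the hypoxic wild-type arrays, 168.8 and 195.2 on the normoxic adeno arrays, and 165.7 and 161.3 on the untreated arrays. All 6 hypoxic arrays lay above all 4 normoxic ones, and every wild-type array lay above every null array. In hypoxic wild-type cells Slc2a1 averaged 1754 ± 79.9 (SD, n = 3), against 182 ± 18.7 (SD, n = 2) in normoxic adeno cells. It rose by 3.24 ± 0.20 (SE) on the log2 scale, or 9.44-fold (95% interval 6.89 to 12.9), with an adjusted p of 8.29e-05. By size of rise it ranked 2 of the 7453 probe sets. The gene was also higher in null cells, at 1109 ± 242 (SD, n = 3), than in the same normoxic arrays. That rise was 2.56 ± 0.20 on the log2 scale, or 5.88-fold (4.29 to 8.05; adjusted p = 0.000519). Without both number 3 arrays the rises were 3.27 in hypoxic wild type (adjusted p = 0.000781) and 2.49 in null (adjusted p = 0.00484).

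Set against hypoxic wild-type cells, null cells had Slc2a1 at -0.68 ± 0.18 on the log2 scale, a ratio of 0.623 (95% interval 0.470 to 0.825). This difference did not pass the threshold (adjusted p = 0.664, and 0.118 with the array number as a block). The 3 pairs of arrays with the same number gave -1.08, -0.49 and -0.48, so null was lower in each pair. The order of the group means was hypoxic wild type, hypoxic null, normoxic adeno, untreated. The ranges of neighbours in that order did not overlap, although the step between the normoxic groups was small, at 0.15 on the log2 scale (95% interval of the ratio 0.785 to 1.56).

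Slc2a3 encodes GLUT3, a transporter of high affinity known mainly from neurons. Both of its probe sets were dim. On 93804_at the values were 38.8, 77.6 and 45.2 in null, 43.8, 56.2 and 26.4 in hypoxic wild-type, 44.9 and 29.0 in normoxic adeno and 35.2 and 32.6 in untreated cells. The 4 groups overlapped, except that each null array lay above both untreated arrays. Hypoxic wild type against normoxic adeno was at 0.14 on the log2 scale, with a ratio interval of 0.599 to 2.03 (adjusted p = 0.980). Null against hypoxic wild type was at 0.32, with a ratio interval of 0.723 to 2.16 (adjusted p = 0.999). At this signal a change of the size of that of Slc2a1 lay outside both intervals, while smaller changes were not resolved. The untested 92292_at ranged from 32.9 to 54.4 in null, 38.5 to 52.8 in hypoxic wild-type, 26.5 to 38.0 in normoxic adeno and 14.8 to 38.4 in untreated cells.

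The transporters can be set against each other within an array, where only the change between groups can be read, since different probes have different brightness. The log2 difference of Slc2a1 minus Slc2a3 was 3.98 to 4.59 on null arrays, 4.91 to 5.75 on hypoxic wild-type arrays, 1.81 to 2.57 on normoxic adeno arrays and 2.09 to 2.15 on untreated arrays. Because Slc2a3 was dim, this difference mostly restates the values of Slc2a1 and is no separate result.

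**Figure D2:**
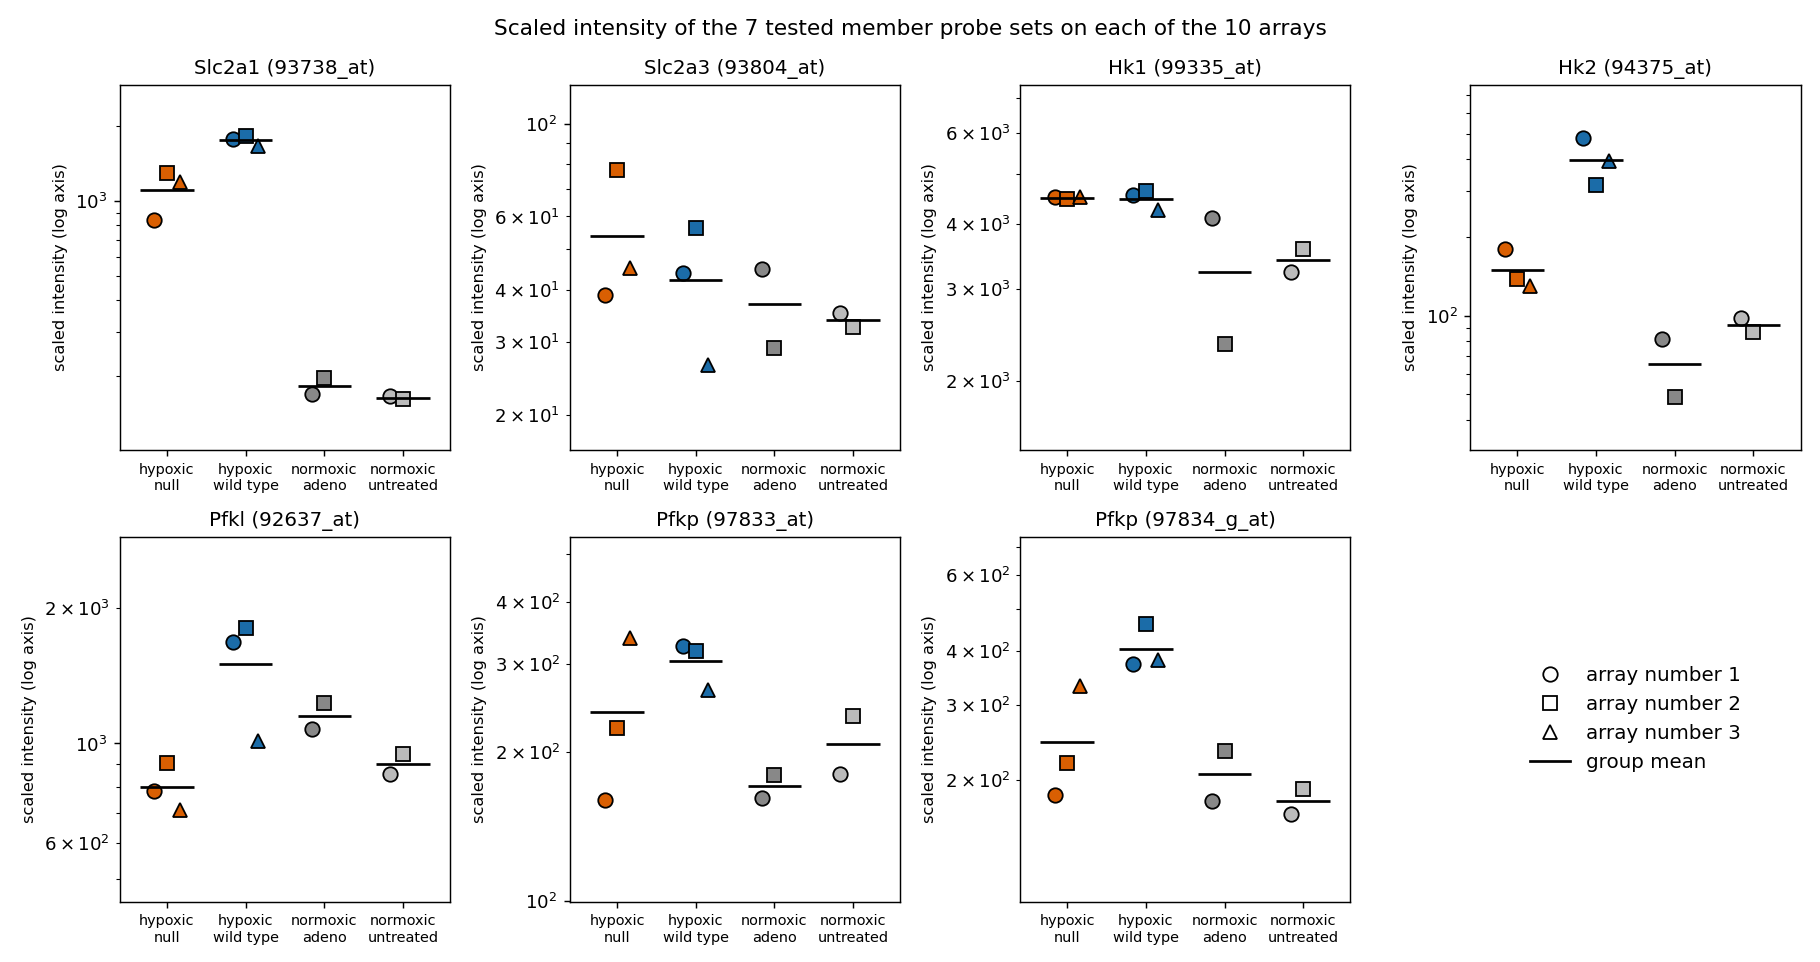
Scaled intensity (log axis) of the 7 tested member probe sets on each of the 10 arrays, with 1 panel per probe set, groups along the horizontal axis, marker shapes for array number and bars for group means. Slc2a1 lies at 836.7 or above on all hypoxic arrays and at 195.2 or below on all normoxic ones, and Hk2 lies at 317.2 or above only on the hypoxic wild-type arrays.

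Hk2 encodes the inducible hexokinase of muscle, fat and many tumours. Its intensity on 94375_at was 179.8, 138.7 and 130.3 in null, 479.7, 317.2 and 393.3 in hypoxic wild-type, 81.3 and 49.0 in normoxic adeno, and 97.9 and 86.8 in untreated cells. No 2 of these groups overlapped. Hk2 averaged 397 ± 81.3 (SD, n = 3) in hypoxic wild-type cells and 65.2 ± 22.8 (SD, n = 2) in normoxic adeno cells. The rise was 2.54 ± 0.26 (SE) on the log2 scale, or 5.83-fold (95% interval 3.88 to 8.74; adjusted p = 0.00345), which ranked 6 of 7453. Without normoxic adeno array 2, the dimmest for Hk2, the rise was 2.20 and the call was lost (adjusted p = 0.0729). With the array number as a block the call held whichever of the 10 arrays was left out. Without both number 3 arrays the rise was 2.54 (adjusted p = 0.0161).

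In null against hypoxic wild-type cells, Hk2 had the lowest log2 change of the 7 tested member probe sets. It averaged 150 ± 26.5 in null and 397 ± 81.3 in hypoxic wild-type cells (SD, n = 3 each), a log2 change of -1.37 ± 0.23 and a ratio of 0.386 (95% interval 0.269 to 0.555). The adjusted p was 0.316, so this difference did not pass over the whole table. The pairs of the same number gave -1.39, -1.17 and -1.56. With the array number as a block Hk2 passed (SE 0.16, adjusted p = 0.0260). That call held in 4 of 10 fits that left out 1 array, with adjusted p between 0.0258 and 0.116. It was lost without normoxic adeno array 1, without any 1 of the 3 hypoxic wild-type arrays, and without null array 2 or 3, while the log2 change stayed between -1.46 and -1.28. Without both number 3 arrays it was -1.28 with the block (adjusted p = 0.113).

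Hk2 in null cells also lay above normoxic adeno cells, at 1.17 ± 0.26 on the log2 scale, or 2.25-fold (1.5 to 3.38; adjusted p = 0.132). With the block it passed, at 1.21 (adjusted p = 0.00792). That call was lost without normoxic adeno array 2 (1.06, adjusted p = 0.106) and without null array 2 (1.13, adjusted p = 0.0597). Between the normoxic groups, Hk2 was at -0.51 in adeno against untreated cells (adjusted p = 0.684). The untested Hk2 probe set 161313_at ranged only from 0.7 to 13 over the 10 arrays and did not follow the pattern of 94375_at.

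Hk1 encodes the broadly expressed hexokinase found on mitochondria. It was bright on 99335_at, with 4506.9, 4473.6 and 4507.1 in null, 4542.1, 4630.7 and 4264.7 in hypoxic wild-type, 4104.4 and 2353.3 in normoxic adeno, and 3239.0 and 3581.0 in untreated cells. The hypoxic groups overlapped each other, and each lay above both normoxic groups, where normoxic adeno array 2 was the lowest. Hypoxic wild type against normoxic adeno was at 0.53 on the log2 scale, with a ratio interval of 1.05 to 1.98 (adjusted p = 0.536). Null against hypoxic wild type was at 0.01, and the interval of the ratio, 0.756 to 1.33, did not reach the ratio of 0.386 seen for Hk2. Null against normoxic adeno was at 0.53 (adjusted p = 0.423). With the block and without normoxic adeno array 1, Hk1 passed as higher in hypoxic wild type (0.97, adjusted p = 0.0166) and in null (0.98, adjusted p = 0.0139). With the block and without normoxic adeno array 2, the dimmest for Hk1, it was at 0.11 (adjusted p = 0.793) and 0.12 (adjusted p = 0.773), so 1 array set the size of this change. With both adeno arrays in that fit it did not pass (adjusted p = 0.159 and 0.123).

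Set within an array, Hk2 minus Hk1 was -5.06 to -4.61 on null, -3.85 to -3.23 on hypoxic wild-type, -5.58 to -5.46 on normoxic adeno and -5.29 to -4.98 on untreated arrays, on the log2 scale. Only its change between groups is read here. The hypoxic wild-type arrays stood above the other 3 groups, and the null arrays overlapped the untreated arrays.

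Pfkl encodes the liver-type subunit of phosphofructokinase. Its intensity on 92637_at was 781.6, 906.9 and 710.2 in null, 1687.1, 1805.6 and 1015.0 in hypoxic wild-type, 1074.6 and 1230.5 in normoxic adeno, and 856.2 and 945.9 in untreated cells. Hypoxic wild-type array 3 lay below both normoxic adeno arrays, and every null array lay below every wild-type array. Pfkl averaged 1503 ± 426 (SD, n = 3) in hypoxic wild-type and 1153 ± 110 (SD, n = 2) in normoxic adeno cells, a log2 change of 0.34 with a ratio interval of 0.866 to 1.85 (adjusted p = 0.799). The same-number pairs gave 0.65 and 0.55. With the block the change was 0.51 (ratio interval 1.13 to 1.80, adjusted p = 0.104). Against all 4 normoxic arrays it was 0.52 (ratio interval 1.04 to 1.97, adjusted p = 0.414). Every hypoxic wild-type array lay above both untreated arrays. Unlike Slc2a1 and Hk2, Pfkl was thus higher but not called in hypoxic wild-type cells. This contrast between the genes was not itself tested.

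Pfkl averaged 800 ± 99.6 in null and 1503 ± 426 in hypoxic wild-type cells (SD, n = 3 each). The log2 change was -0.87 ± 0.22 and the ratio 0.547 (95% interval 0.390 to 0.769; adjusted p = 0.622). The pairs of the same number gave -1.11, -0.99 and -0.51. With the block the SE was 0.13 and Pfkl passed narrowly (adjusted p = 0.0467), but it passed in 0 of the 10 fits that left out 1 array, where the adjusted p was 0.0558 to 0.282 and the log2 change -1.05 to -0.78. Without both number 3 arrays it was -1.05 with the block (adjusted p = 0.0595). In null cells Pfkl lay below normoxic adeno cells without overlap, at -0.53 on the log2 scale (ratio interval 0.474 to 1.01, adjusted p = 0.530). It overlapped the untreated arrays.

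Pfkp encodes the platelet-type subunit. Its probe sets 97833_at and 97834_g_at come from the same GenBank entry and are not independent. On 97834_g_at the values were 184.7, 219.5 and 331.5 in null, 372.8, 461.6 and 380.3 in hypoxic wild-type, 178.9 and 234.1 in normoxic adeno, and 166.7 and 190.6 in untreated cells. The hypoxic wild-type arrays stood above all others, and null array 3 was the highest of the rest. On 97833_at the values were 159.7, 223.5 and 338.2 in null, 326.2, 318.9 and 265.9 in hypoxic wild-type, 161.2 and 179.9 in normoxic adeno, and 180.0 and 235.4 in untreated cells. Here null array 3 was above all 3 wild-type arrays, so the hypoxic groups overlapped.

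For hypoxic wild type against normoxic adeno, Pfkp was at 0.96 ± 0.25 on 97834_g_at (adjusted p = 0.278) and at 0.81 on 97833_at (adjusted p = 0.464). With the block, 97834_g_at was at 0.86 (adjusted p = 0.0597), and it passed with the block when either or both of the number 3 arrays were left out (1.0, adjusted p = 0.0237 to 0.0245). For null against hypoxic wild type, 97834_g_at was at -0.75 (adjusted p = 0.927, and 0.151 with the block) and 97833_at at -0.39 (adjusted p = 0.999). The same-number pairs gave -1.0, -1.06 and -0.20 on the first of these probe sets and -1.01, -0.50 and 0.34 on the other. The difference was thus smallest, or turned, in the number 3 pair. Set within an array, Pfkp on 97834_g_at minus Pfkl was -2.05 to -1.09 on null, -2.16 to -1.41 on hypoxic wild-type, -2.56 to -2.37 on normoxic adeno and -2.33 to -2.28 on untreated arrays. Both hypoxic groups lay above both normoxic groups and overlapped each other.

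**Figure D3:**
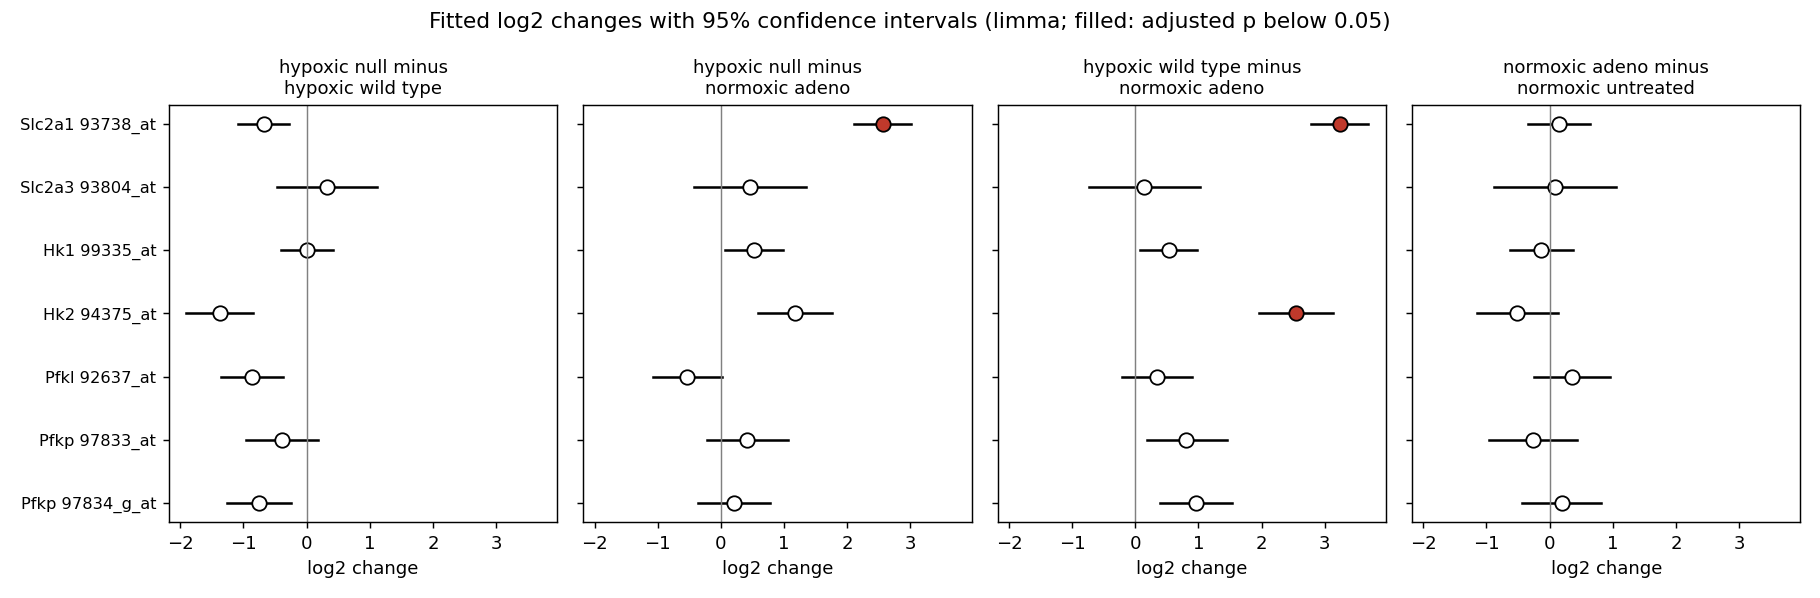
Fitted log2 changes with 95% confidence intervals for the 7 tested member probe sets in 4 comparisons, 1 panel each; filled points passed an adjusted p of 0.05 in limma without a block. The filled points are Slc2a1 in both comparisons with normoxic adeno and Hk2 in hypoxic wild type against normoxic adeno.

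Counted over the 7 tested member probe sets, 2 were called higher in hypoxic wild type than in normoxic adeno, where 0.322% of all tested probe sets were called higher. All 7 had a positive change, as had 47.1% of all tested, and the median was 0.81 on the log2 scale, beside -0.02 over all tested. In 5 of 7 the hypoxic wild-type arrays lay wholly above the normoxic adeno arrays, as did 11.7% of all tested. The 2 called were Slc2a1 and Hk2.

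For null against hypoxic wild type, limma called 0 of the 7, and 0% of all tested probe sets were called lower. Before adjustment, 4 of the 7 had p under 0.05, all lower, as had 259 of all tested, 130 higher and 129 lower. With the array number as a block 2 of the 7 were called lower, Hk2 and Pfkl, beside 0.0939% of all tested, or 7 probe sets. In 4 of 7 the null arrays lay wholly below the wild-type arrays, beside 2.75% of all tested, and the median was -0.68 beside 0.02. The 4 were Slc2a1, Hk2, Pfkl and Pfkp on 97834_g_at. The fibroblast, macrophage and endothelial marker sums were likewise lower in null in 3 of 3 same-number pairs. As given above, single bright genes weighed heavily in the macrophage and endothelial sums. The fibroblast sum was 14429, 9756 and 4311 on null arrays, against 15374, 11346 and 4680 on wild-type arrays of the same numbers. The part of these sums in the calls was not tested.

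For null against normoxic adeno, 1 of 7 was called higher, Slc2a1, beside 0.349% of all tested, and with the block 2 of 7, Slc2a1 and Hk2, beside 2.94%. The groups did not overlap in 4 of the 7: 3 members were higher, beside 13.8% of all tested, and 1, Pfkl, was lower, beside 12.1%. The median was 0.46 beside 0.01. This comparison shares its normoxic arrays with hypoxic wild type against normoxic adeno, and its null arrays with null against hypoxic wild type, so the 3 sets of values are not independent.

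For normoxic adeno against untreated, limma called 0 of 7 in either direction and 0% of all tested. Before adjustment, p was under 0.05 for 0 of the 7 and for 619 of all tested, 309 higher and 310 lower. With the block 0 of the 7 and 18 of all tested were called. The groups did not overlap in 2 higher members, Slc2a1 and Pfkl, beside 24.6% of all tested, and in 2 lower members, Hk2 and Pfkp on 97833_at, beside 24.4%. The median member change was 0.08, beside -0.01 over all tested.

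**Figure D4:**
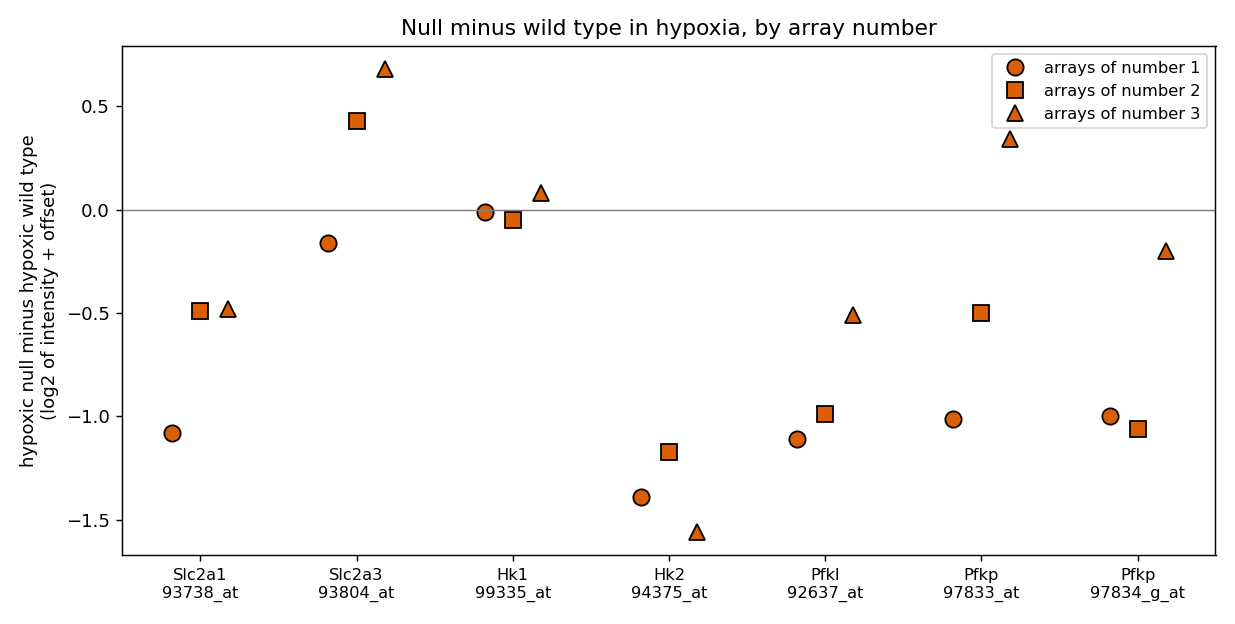
Difference of log2(intensity + 4.7), hypoxic null minus hypoxic wild type, for each pair of arrays of the same number (marker shape) and each tested member probe set. All 3 pairs lie below 0 for Slc2a1, Hk2, Pfkl and Pfkp on 97834_g_at, while Hk1 stays between -0.05 and 0.08.

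The rest of the pathway was followed in a list of 38 further genes, from uptake to lactate and including the opposing steps of glucose synthesis. Of these, 27 had a probe set and 20, on 23 probe sets, were tested. Hk3, Gpi1, Pfkfb1 and Pfkfb4 were among the 11 genes with no probe set under their symbol. Slc2a4, Slc2a5 and Pfkfb2 were below the intensity limit, and Gapdh was present only on control probe sets. Without the block, 0 of the 23 passed in limma in any of the 4 comparisons. Before adjustment, p was under 0.05 for 0 of the 23 in hypoxic wild type against normoxic adeno, 6 in null against hypoxic wild type (1 higher, 5 lower), 4 in null against normoxic adeno (1 higher, 3 lower) and 2 in adeno against untreated (2 higher). Over all 7453 tested probe sets the counts were 595, 259, 728 and 619, in the same order of comparisons.

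For hypoxic wild type against normoxic adeno, 15 of the 23 changes were positive, beside 47.1% of all tested. Their median was 0.13 on the log2 scale beside -0.02 over all tested. The members' median there was 0.81. For null against hypoxic wild type, 8 of 23 were positive, beside 55.0% of all tested, and the median was -0.18 beside 0.02. The lowest of the 23 in that comparison was Pdk1, the kinase that restrains pyruvate entry into mitochondria, at 145 ± 21.8 in null and 333 ± 91.5 in hypoxic wild-type cells (SD, n = 3 each; log2 change -1.15, adjusted p = 0.385). Pdk1 was singled out after its values were seen. The null arrays lay wholly below the hypoxic wild-type arrays for Pdk1, Aldoc, Pgam1, Ldha, Pgm1 and both Aldoa probe sets, where 2.75% of all tested did. For Pdk4 they lay wholly above, at 0.74 on the log2 scale (adjusted p = 0.999). The share of all tested that lay wholly above is not given here.

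Among isozymes of the same steps, Slc2a2, the main glucose transporter of hepatocytes, read 502, 1026.7 and 1742.8 in null, 808.2, 1350.5 and 2203.7 in hypoxic wild-type, 772.4 and 1126.2 in normoxic adeno and 769.9 and 1224.6 in untreated cells. In both hypoxic groups it was lowest on array 1 and highest on array 3, and all 4 groups overlapped. The change of Slc2a2 was 0.52 for hypoxic wild type against normoxic adeno (adjusted p = 0.860, and 0.13 with the block, adjusted p = 0.671). For null against hypoxic wild type it was -0.47 (adjusted p = 0.999), and null was lower in each same-number pair. With the block that change had an SE of 0.12 and a ratio interval of 0.598 to 0.870, and did not pass (adjusted p = 0.194). The muscle-type phosphofructokinase Pfkm was at 0.42 and 0.03 in these comparisons. Pfkfb3, which makes an activator of phosphofructokinase, was at -0.01 and 0.02 on its tested probe set.

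The genes of the list that passed did so only in the fit with the array number as a block. G6pc, the phosphatase that releases glucose and so reverses the hexokinase step, read 272, 694.9 and 1020.2 in null, 251.6, 805.2 and 1559.1 in hypoxic wild-type, and 681.4 and 2309.2 in normoxic adeno cells, against 837.4 and 2014.2 in untreated cells. Among the arrays numbered 1, and among those numbered 2, the hypoxic values lay below the normoxic ones, and no normoxic array is numbered 3. With the block G6pc fell by 1.37 in hypoxic wild type against normoxic adeno (adjusted p = 0.00419, where 0.725% of all tested were called lower). It was at -0.87 without the block (adjusted p = 0.850). With the block, 3 of the 23 were called lower in null against normoxic adeno, where 2.87% of all tested were. They were G6pc (-1.61, adjusted p = 0.00145), Fbp1, which reverses the phosphofructokinase step (-0.62, adjusted p = 0.0339), and Pgam1, a mutase of lower glycolysis (-0.70, adjusted p = 0.0101). Without the block they were at -1.11, -0.46 and -0.65, and none passed (adjusted p = 0.711, 0.748 and 0.342). Fbp1 averaged 4503 in null, 6197 in normoxic adeno and 4505 in untreated cells, and Pgam1 averaged 1955, 3055 and 2153. Both means were higher in normoxic adeno than in untreated cells, and the part of that difference in these calls was not tested.

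**Figure D5:**
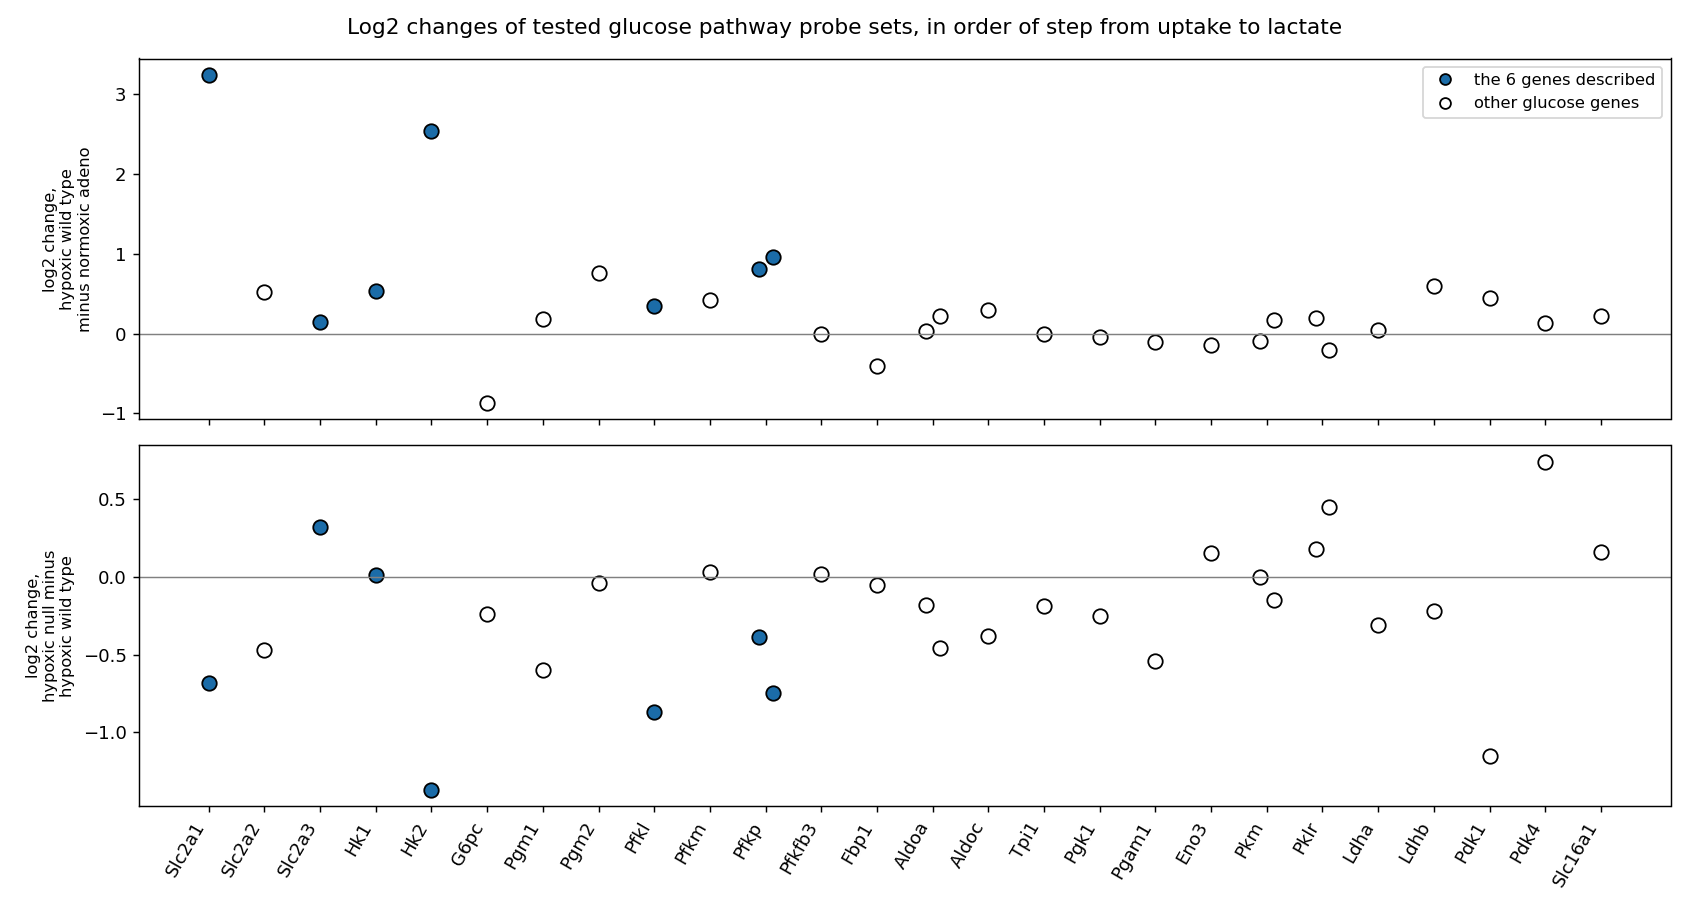
Log2 changes of the tested glucose pathway probe sets, ordered by step along the horizontal axis, for hypoxic wild type minus normoxic adeno (upper panel) and hypoxic null minus hypoxic wild type (lower panel). Filled points are the 6 member genes and open points the other genes; Slc2a1 at 3.24 and Hk2 at 2.54 stand above every other point in the upper panel.

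The genes with the most similar pattern were sought for Slc2a1, Hk2 and Pfkl by the root mean square difference of mean-centred log2 values over the 10 arrays, among all tested named probe sets. The value is 0 for identical patterns. For Slc2a1 the nearest were Atf3 (0.43), a stress-induced transcription factor, Cldn4 (0.56), a tight junction protein, and Pgf (0.59), a growth factor of the VEGF family. All 3 were higher in hypoxia, by 2.48 to 3.0 on the log2 scale in hypoxic wild type against normoxic adeno. In null against hypoxic wild type they were at -0.04, 0.21 and 0.01, where Slc2a1 was at -0.68.

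For Hk2 the nearest were H2-Ab1 (0.43), a class II histocompatibility chain, Ero1a (0.43), an oxidase of protein folding in the endoplasmic reticulum, and Tnfsf9 (0.48), a ligand of the tumour necrosis factor family. Ero1a averaged 837 in null, 1314 in hypoxic wild-type, 338 in normoxic adeno and 382 in untreated cells, the same order of group means as Hk2. H2-Ab1 averaged 39.8, 98.9, 27.8 and 16.4, and Tnfsf9 51.1, 74.8, 21.9 and 18.7, in the same order of groups, and both had normoxic adeno above untreated, unlike Hk2. For Pfkl the nearest were P4ha2 (0.22), a subunit of the collagen prolyl hydroxylase, Wdfy2 (0.22) and Epb41l4a (0.26). Epb41l4a was dim, with group means of 34.1 to 47.7. P4ha2 averaged 468 in null, 769 in hypoxic wild-type, 478 in normoxic adeno and 503 in untreated cells. Null against hypoxic wild type it was at -0.70, beside -0.87 for Pfkl. The 10 arrays share their scaling and array numbers, so these likenesses are descriptions.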

How the data were processed

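Total RNA of 10 mouse hepatocyte samples was measured on 1 array each. The deposited values are intensities on a linear scale, scaled by the authors: a trimmed mean, from the 2nd to the 98th percentile, was 199.6 to 200.0 on every array as computed here. How scans became values, the sources used here do not say. This scaling stayed in place, and log2 was taken after adding an offset of 4.7, the 10th percentile of the deposited values. The 66 control probe sets and those with a mean under the 40th percentile were left out. A platform table gives 1 symbol to 10855 probe sets, several to 396 and none to 1237, and 10839 matched RefSeq genes of GRCm38.p6, used for names.

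The 7453 probe sets were fitted with limma 3.58.1 in R 4.3.3 (4 group means, eBayes with a trend on intensity; 6 residual degrees of freedom, or 4 with the block), two-sided, and adjusted by Benjamini-Hochberg. The fit was tested on simulated data. Of the 13 pairs of arrays of the same number in different groups, every one correlated above 0.1 in deviations from group means (0.103 to 0.677). The labels' numbers were therefore taken to pair the arrays, so the block was chosen from the same values that it was fitted to. In a group of 2 arrays the deviations mirror each other, so the 13 values are not independent. In hypoxia, the 3 same-number pairs gave 0.541 to 0.677 and the 6 others -0.514 to -0.156. Because deviations cancel within a group, high same-number values push those of the other pairs down. Between normoxia and hypoxia the pairing was weaker: the number 2 normoxic arrays correlated at 0.103 to 0.173 with the number 2 hypoxic arrays and at 0.154 to 0.253 with the number 3 ones, so block values against normoxic arrays rest on weaker evidence of pairing.

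Alternatives were other offsets, filters and scalings, no trend, the block, all 4 normoxic arrays, and arrays left out. Named genes were all members, isozymes of their steps, pathway genes past the threshold and 3 nearest patterns each for 3 members. Pdk1 and the pathway genes without overlap between null and hypoxic wild type were added after their values were seen. Members, lists and rules were chosen with earlier results of these data known.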

Additional observations from a re-analysis of the deposited data

Results flagged for a closer look

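Hk2 and Pfkl differed between null and wild-type cells in hypoxia in the fit with the array number as a block. Hk2 on 94375_at was at -1.37 on the log2 scale, null minus wild type, and lower in null in 3 of 3 same-number pairs. Pfkl on 92637_at was at -0.87, also lower in 3 of 3 pairs. Neither passed without the block. In 10 fits with the block that each left out 1 array, Hk2 passed in 4 (adjusted p = 0.0258 to 0.116) and Pfkl in 0 (adjusted p = 0.0558 to 0.282).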

How the results depend on the processing

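The rises of Slc2a1 passed the threshold under all 21 alternatives, at 3.14 to 3.34 for hypoxic wild type and 2.43 to 2.75 for null, both against normoxic adeno. The rise of Hk2 in hypoxic wild type passed in 30 of 31 alternatives (2.20 to 2.88), and failed without normoxic adeno array 2 (2.20). Null against hypoxic wild type, Hk2 stayed at -1.52 to -1.23 and passed in 5 of 30 alternatives, and Pfkl stayed at -1.13 to -0.71 and passed in 1 of 30, the block. Leaving out each array together with the block was chosen after seeing the data.

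The replicate block moved the probe sets called over the whole table to 164 in hypoxic wild type against normoxic adeno (25 without it), 8 in null against hypoxic wild type (0), 433 in null against normoxic adeno (33) and 18 in adeno against untreated (0). It moved the members called to 2 in null against hypoxic wild type and to 2 in null against normoxic adeno, a count also reached with the block without the number 3 arrays. It changed no other member call. With the block and without the number 3 arrays, the same 4 whole-table counts were 98, 1, 214 and 3. Without the number 3 arrays and without a block, null against hypoxic wild type had 1 and null against normoxic adeno 18. Against all 4 normoxic arrays, hypoxic wild type had 42 and null 70. Leaving out 1 array gave 3 to 32 for hypoxic wild type and 3 to 30 for null, both against normoxic adeno and lowest without normoxic adeno array 2, and 1 to 2 members for hypoxic wild type. The causes were not tested.

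Small changes that turned sign were all far from the threshold. Hk1 in null against hypoxic wild type was at -0.03 under median scaling, without the number 3 arrays, and with the block without them, and at -0.03 to 0.03 with 1 array left out. Pfkp on 97834_g_at in null against normoxic adeno was at -0.02 without the number 3 arrays, with or without the block, and at -0.02 to 0.40 with 1 array left out. With 1 array left out, Slc2a3 was at -0.14 to 0.42 in hypoxic wild type against normoxic adeno and at -0.20 to 0.36 in adeno against untreated, and Hk1 at -0.53 to 0.27 in adeno against untreated. The filter at the 60th percentile removed Slc2a3, so the members were not counted there. With 2 normoxic adeno arrays, small changes of dim probe sets such as Slc2a3 were not resolved.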
